A study of Mus musculus with 4 samples.

Results

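The genes of the unfolded protein response and of protein folding in the endoplasmic reticulum (ER) were examined in pancreatic islets, the clusters of endocrine cells that release insulin and glucagon. A list of 38 gene symbols was matched to the array annotation, and 37 had a probeset that the annotation pairs with a single gene, out of 22180 genes measured in all. Pdia4 had no such probeset and was not analysed here. Ero1l appears in the annotation under its newer symbol Ero1a. Where a gene had several probesets, the brightest over the 4 arrays stood for it.

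Islets came from GPR41 transgenic mice (41 Tg, 2 arrays) and from wild-type littermates (WT, 2 arrays), all C57BL/6 and aged 5 to 6 months, and were held in RPMI medium before RNA was taken. GPR41 is a receptor for short-chain fatty acids whose mouse gene is Ffar3, and the study asked how it bears on insulin secretion and islet gene expression. The labels name neither the promoter of the transgene nor the sex of the mice, and they do not say whether an array holds islets of 1 animal or of a pool, so p-values measure only the spread between these samples. Values are deposited log2 signals of Affymetrix Mouse Gene 2.0 ST arrays. Ffar3 had log2 values of 11.02 and 10.98 on the 41 Tg arrays, against 7.09 and 6.47 on the WT arrays. Array medians lay between 6.43 and 6.47. The endocrine genes that define islets were bright on all 4 arrays, with Ins2 between 12.46 and 12.59 and Gcg between 13.45 and 13.64. Exocrine acinar cells, which make digestive enzymes, were represented too, with Ctrb1 between 13.56 and 13.89.

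Secretory cells fold large amounts of protein in the ER, and the beta cell does so for proinsulin. When unfolded protein builds up, the sensors IRE1 (Ern1), PERK (Eif2ak3) and ATF6 in the ER membrane signal to the nucleus and to the ribosome, which raises chaperones and the machinery of ER-associated degradation (ERAD) and lowers protein synthesis. Prolonged signalling through PERK and ATF4 raises CHOP (Ddit3), which is linked to beta cell death. Loss of PERK or of the ER membrane protein wolframin (Wfs1) causes diabetes in mice and in humans.

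The promoters of many of these genes share the ER stress element, to which ATF6 binds together with the factor NF-Y. Its letters are CCAAT, 9 bases of any kind and CCACG. In RefSeq promoters of build GRCm38.p6, which run from 250 bases before to 50 bases after each gene's start, both strands were searched for exact matches. The table held promoters of 33 of the 37 measured genes, and 10 of these genes (30.3%) had the element, against 0.119% of all 32851 promoters. The genes were chosen for this response, and the element is known from it, so the higher share is not an independent result. The shares also count different things, genes against single promoters. The sites are shown because the element divides the genes in a comparison further on. Each is printed with CCAAT first, 5 bases on either side and CCAAT and CCACG in capitals. The Hspa5 site is chr2:34772020-34772048, the Hsp90b1 sites are chr10:86705633-86705661 and chr10:86705528-86705556, and the Dnajc3 site is chr14:118937822-118937850. That of Calr is chr8:84847070-84847098, of Canx chr11:50325795-50325823, of Creld2 chr15:88819515-88819543 and of Pdia6 chr12:17266486-17266514. That of Ero1b is chr13:12565677-12565705, of Syvn1 chr19:6046527-6046555 and of Derl3 chr10:75893237-75893265. The site lies on the strand opposite to the gene in Calr, Creld2, Ero1b, Derl3 and the second site of Hsp90b1.
Hspa5: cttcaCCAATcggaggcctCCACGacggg
Hsp90b1, first site: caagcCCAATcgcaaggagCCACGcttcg
Hsp90b1, second site: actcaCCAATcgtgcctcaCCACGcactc
Dnajc3: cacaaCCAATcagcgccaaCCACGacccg
Calr: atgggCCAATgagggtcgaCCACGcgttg
Canx: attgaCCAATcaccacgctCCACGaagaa
Creld2: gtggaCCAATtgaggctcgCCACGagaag
Pdia6: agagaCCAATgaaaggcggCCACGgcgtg
Ero1b: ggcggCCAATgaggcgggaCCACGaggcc
Syvn1: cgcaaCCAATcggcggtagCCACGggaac
Derl3: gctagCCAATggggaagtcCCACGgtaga

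The element was held by 6 of 9 chaperone promoters, 2 of 5 promoters of oxidative folding genes and 2 of 8 ERAD promoters. It was found in 0 of the 5 promoters of sensors and their transcription factors, 0 of 3 of stress outputs and 0 of 3 of translocation genes. The letters CCACG alone are short and stood in 25 of 33 members (75.8%) and in 32.8% of all promoters. It was in 9 of 9 chaperone and 8 of 8 ERAD promoters. The UPR element TGACGTGG, which itself holds CCACG on the other strand, was in 0 of 33 members and 0.676% of all promoters. The C/EBP-ATF element TGATGNAAN, read by ATF4 and CHOP, was in 2 of 33 members, Herpud1 and Trib3, and in 3.95% of all promoters. An exact match is a description of these letters and not of binding.

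The 250 bases before the start of Hspa5, chr2:34771840-34772089 on the plus strand, are given because BiP, its product, is the standard readout of ER stress. Those of Derl3, chr10:75893148-75893397 on the plus strand, are given because Derl3 had the largest difference between the groups of any measured member. Both run along the gene's own strand, with CCAAT and CCACG of the element in capitals. In Hspa5 the element spans bases -65 to -47 from the start, and in Derl3 bases -156 to -138, where it is read on the other strand.
Hspa5: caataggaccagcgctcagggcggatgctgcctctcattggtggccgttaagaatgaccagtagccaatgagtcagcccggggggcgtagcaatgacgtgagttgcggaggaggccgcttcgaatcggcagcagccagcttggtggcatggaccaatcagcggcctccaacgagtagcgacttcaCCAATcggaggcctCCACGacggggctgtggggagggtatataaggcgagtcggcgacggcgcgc
Derl3: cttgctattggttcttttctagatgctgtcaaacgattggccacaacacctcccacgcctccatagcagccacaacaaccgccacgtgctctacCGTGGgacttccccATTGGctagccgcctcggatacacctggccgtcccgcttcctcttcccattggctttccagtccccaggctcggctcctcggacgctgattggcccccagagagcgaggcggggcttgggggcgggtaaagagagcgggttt

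None of the 37 genes passed the test between 41 Tg and WT islets, and the estimated differences were small. Every difference given is a limma estimate in log2 units, with WT subtracted from 41 Tg, and a gene passed at a Benjamini-Hochberg adjusted p under 0.05 over all 22180 genes, as 0.897% of all genes did. The smallest adjusted p among the 37 was 0.25. Their differences ran from -0.11 to 0.57 with a median of 0.0089, against a median of -0.017 over all genes. The median of the 37 turned to -0.0025 when each array was centred on its own median, and that of all genes moved to -0.028. The 95% confidence interval lay within a 2-fold change in either direction for all 37 genes and within a 1.5-fold change for 32 (86.5%), against 95.4% and 77.0% of all genes tested. These intervals are single-gene intervals and lean on the spread that limma borrows across genes. All 37 genes were brighter than the median of all genes (6.525), while the shares over all genes, here and below, include dim genes.

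At an unadjusted p under 0.05, 5 of the 37 genes (13.5%) were higher in 41 Tg islets, where 6.13% of all genes were, and 0 were lower, where 5.72% of all genes were. In a limma fit of only the genes above the median level, 15.6% were under 0.05 in either direction, against 11.8% in the main fit. That fit held the same 5 of the 37. The 5 were Derl3, Edem1 and Edem2 of ERAD, the oxidase gene Ero1l and Ddit3. With any 1 array left out, not all of the 5 stayed under 0.05, and 1 group then rested on a lone array. Their differences then ran from 0.37 to 0.77 for Derl3, 0.33 to 0.39 for Edem1 and 0.23 to 0.31 for Edem2. For Ero1l they ran from 0.285 to 0.45 and for Ddit3 from 0.23 to 0.44. Which genes were under 0.05 moved with the variance model as well. Without moderation Derl3 and Ddit3 were not among them and Hyou1, lower in 41 Tg islets, was. By position alone, both 41 Tg arrays lay above both WT arrays for 12 genes (32.4%, against 18.6% of all genes) and below them for 4 (10.8%, against 23.7%). In the remaining 21 genes the groups overlapped. In 24 of the 37 genes the 2 arrays of at least 1 group lay farther apart than the group means did, as in 69.7% of all genes.

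**Figure D1:**
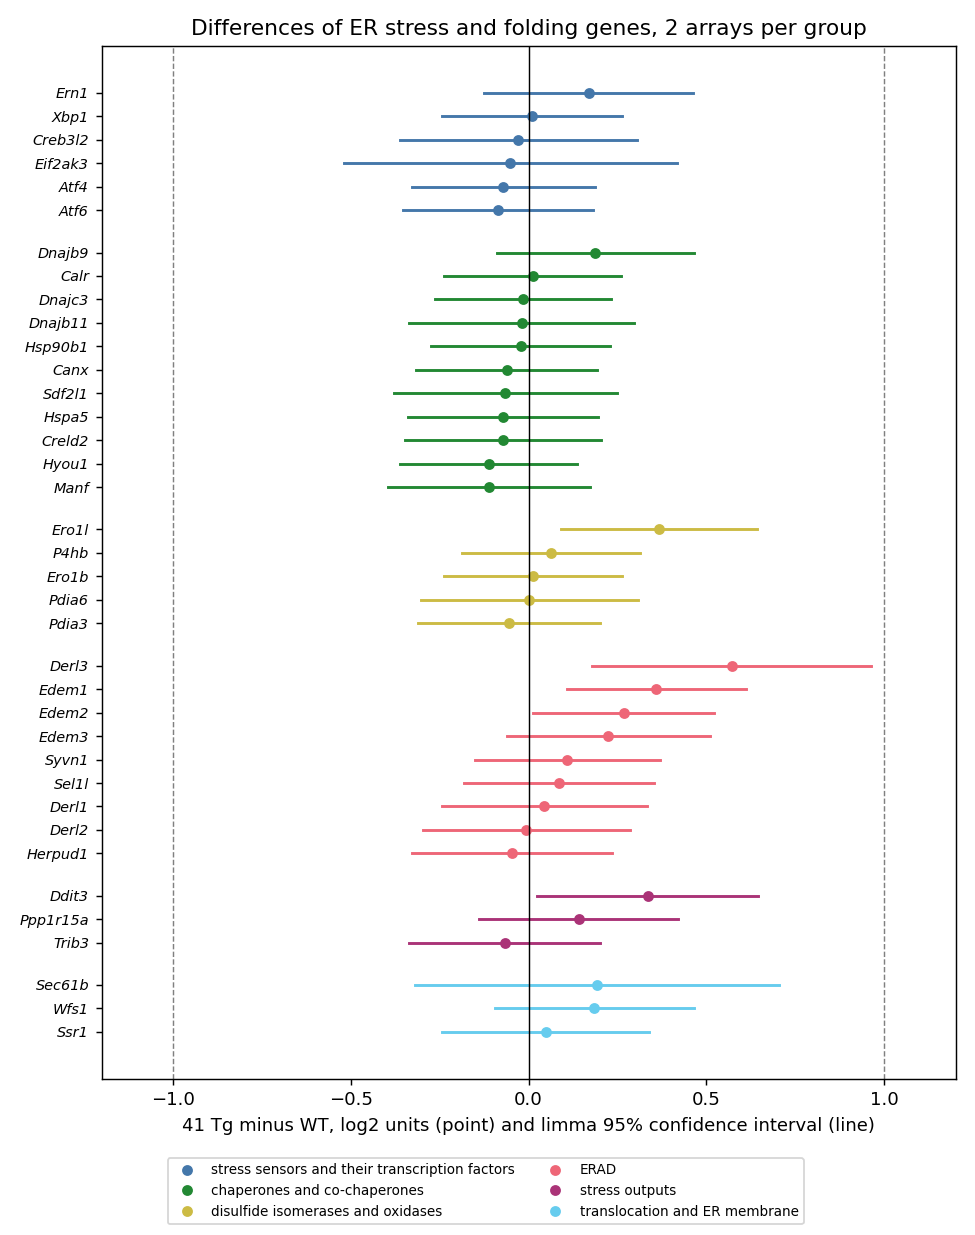
Difference of each of the 37 genes, 41 Tg minus WT in log2 units, with limma's 95% confidence interval, ordered within each role and coloured by it. Dashed lines mark a 2-fold change, and no interval crosses them. Only the intervals of Derl3, Edem1, Edem2, Ero1l and Ddit3 lie above 0, and these are not adjusted for the number of genes.

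The sensors and their transcription factors differed little, with 2 of 6 genes higher (45.7% of all genes were) and a median of -0.040. At an unadjusted p under 0.05 were 0 of the 6, against 11.8% of all genes. Ern1, which encodes IRE1, the kinase and ribonuclease that splices Xbp1 RNA, had log2 values of 11.71 and 11.58 on the 41 Tg arrays, against 11.57 and 11.39 on the WT arrays. The 41 Tg arrays stood above the WT arrays by a margin smaller than the gap between the arrays of either group (difference 0.17, SE 0.12, 95% interval -0.13 to 0.46, adjusted p = 0.664). Xbp1, the transcription factor activated by that splicing, had 12.12 and 12.09 on the 41 Tg arrays, against 12.06 and 12.13 on the WT arrays. Its groups overlapped (difference 0.0089, SE 0.10), and the probeset gives total Xbp1 RNA with no separate value for the spliced form.

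Eif2ak3 encodes PERK, which phosphorylates the initiation factor eIF2. It had 9.89 and 9.64 on the 41 Tg arrays, against 9.57 and 10.06 on the WT arrays. The WT arrays were 0.49 apart, the widest gap between WT arrays of any of the 37 genes, and the groups overlapped (difference -0.051, SE 0.19, 95% interval -0.52 to 0.42). The mean of 22 acinar markers was 10.84 and 10.44 on the 41 Tg arrays, against 10.08 and 11.27 on the WT arrays. Eif2ak3 and Xbp1 were the 2 of 37 genes whose 4 arrays stood in the same order as this mean. The mean of the duct markers, given further on, shares this order. The share of all genes in this order was not counted, and the islet endocrine mean was also matched by 2 of the 37. Xbp1 ran only from 12.06 to 12.13. The part of acinar or duct RNA in the values of Eif2ak3 and Xbp1 was not tested. In islets, a bulk sample, fewer cells of a type and less RNA per cell cannot be told apart.

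Atf6, the sensor that is cut in the Golgi to release a transcription factor, had 10.96 and 10.86 on the 41 Tg arrays, against 11.05 and 10.95 on the WT arrays. The groups overlapped slightly (difference -0.085, SE 0.11). Atf4, the transcription factor translated when eIF2 is phosphorylated, had 9.79 and 9.88 on the 41 Tg arrays, against 9.93 and 9.89 on the WT arrays. Both 41 Tg arrays were lower, by a small margin (difference -0.071, SE 0.10, adjusted p = 0.873). The related ER membrane factor Creb3l2 had a difference of -0.029 (SE 0.13). Without 41 Tg replicate 2 the median of these 6 genes was 0.028.

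Chaperones and their co-chaperones had differences close to 0, with 2 of 11 genes higher (45.7% of all genes were), 9 lower and a median of -0.062. At an unadjusted p under 0.05 were 0 of the 11, against 11.8% of all genes. Hspa5, which encodes BiP, the main ER chaperone that also holds the sensors inactive, had 11.22 and 11.34 on the 41 Tg arrays, against 11.33 and 11.38 on the WT arrays. The groups overlapped, and the 95% interval of the fold change ran from 0.791 to 1.15 (difference -0.071, SE 0.11, adjusted p = 0.877). The difference was -0.0077 without 41 Tg replicate 1 and -0.14 without 41 Tg replicate 2. Hsp90b1, the ER member of the Hsp90 family, had 12.52 and 12.47 on the 41 Tg arrays, against 12.53 and 12.51 on the WT arrays, a difference of -0.023 with overlapping groups. Sdf2l1, a partner of BiP, had 10.93 and 11.19 on the 41 Tg arrays, against 11.15 and 11.10 on the WT arrays. Its 41 Tg arrays lay on either side of both WT arrays (difference -0.065).

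Dnajb9, a co-chaperone of BiP that restrains IRE1, had the largest chaperone difference. It had 12.22 and 12.31 on the 41 Tg arrays, against 12.15 and 12.01 on the WT arrays, so the groups did not overlap (difference 0.19, SE 0.11, adjusted p = 0.594). Hyou1, a nucleotide exchange factor for BiP, had 11.27 and 11.30 on the 41 Tg arrays, against 11.38 and 11.41 on the WT arrays. The 41 Tg arrays were lower with tight pairs, and the difference did not pass (-0.11, SE 0.10, adjusted p = 0.754). Manf, a secreted ER stress protein that supports beta cells in mice, had 7.94 and 8.10 on the 41 Tg arrays, against 8.18 and 8.08 on the WT arrays, with overlap (difference -0.11).

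The lectin chaperones Calr (0.011) and Canx (-0.062), which hold glycoproteins while they fold, and the co-chaperones Dnajb11 (-0.019) and Dnajc3 (-0.016) had differences near 0. Creld2, a folding protein induced by ER stress, had a difference of -0.073. Of these 5, both 41 Tg arrays lay below both WT arrays for Canx and Dnajc3. Of all 11 chaperone genes, 3 did so (27.3%, against 23.7% of all genes). The median of the 11 genes was -0.0077 without 41 Tg replicate 1 and lay below 0 without each of the other arrays too.

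Oxidative folding genes had a median of 0.013, with 4 of 5 genes higher, where 45.7% of all genes were. Of the 5, 1 was higher at an unadjusted p under 0.05, as were 6.13% of all genes. Ero1l, the widely expressed ER oxidase that recharges disulfide isomerases and is induced by hypoxia, had 11.33 and 11.50 on the 41 Tg arrays, against 11.03 and 11.07 on the WT arrays. The groups did not overlap (difference 0.37, SE 0.11, 1.29-fold, 95% interval of the fold 1.07 to 1.56, unadjusted p = 0.0177, adjusted p = 0.288). A second, dimmer probeset of the gene had 7.80 and 7.91 on the 41 Tg arrays, against 7.47 and 7.58 on the WT arrays. Its difference of 0.33 was of the same size (unadjusted p = 0.0263, adjusted p = 0.352).

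Ero1b, the oxidase enriched in pancreatic endocrine cells, had 11.69 and 11.69 on the 41 Tg arrays, against 11.70 and 11.65 on the WT arrays. It was level between the groups (difference 0.013, SE 0.10, 95% interval -0.24 to 0.26). Whether Ero1l and Ero1b differ from each other in this respect was not tested. The isomerase gene P4hb had 11.67 and 11.71 on the 41 Tg arrays, against 11.63 and 11.62 on the WT arrays, a small gap without overlap (difference 0.063). Pdia3 had 12.48 and 12.52 on the 41 Tg arrays, against 12.59 and 12.51 on the WT arrays, with overlap (difference -0.056). Pdia6, another isomerase, had a difference of 0.0022. The median of the group was 0.083 without 41 Tg replicate 1.

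**Figure D2:**
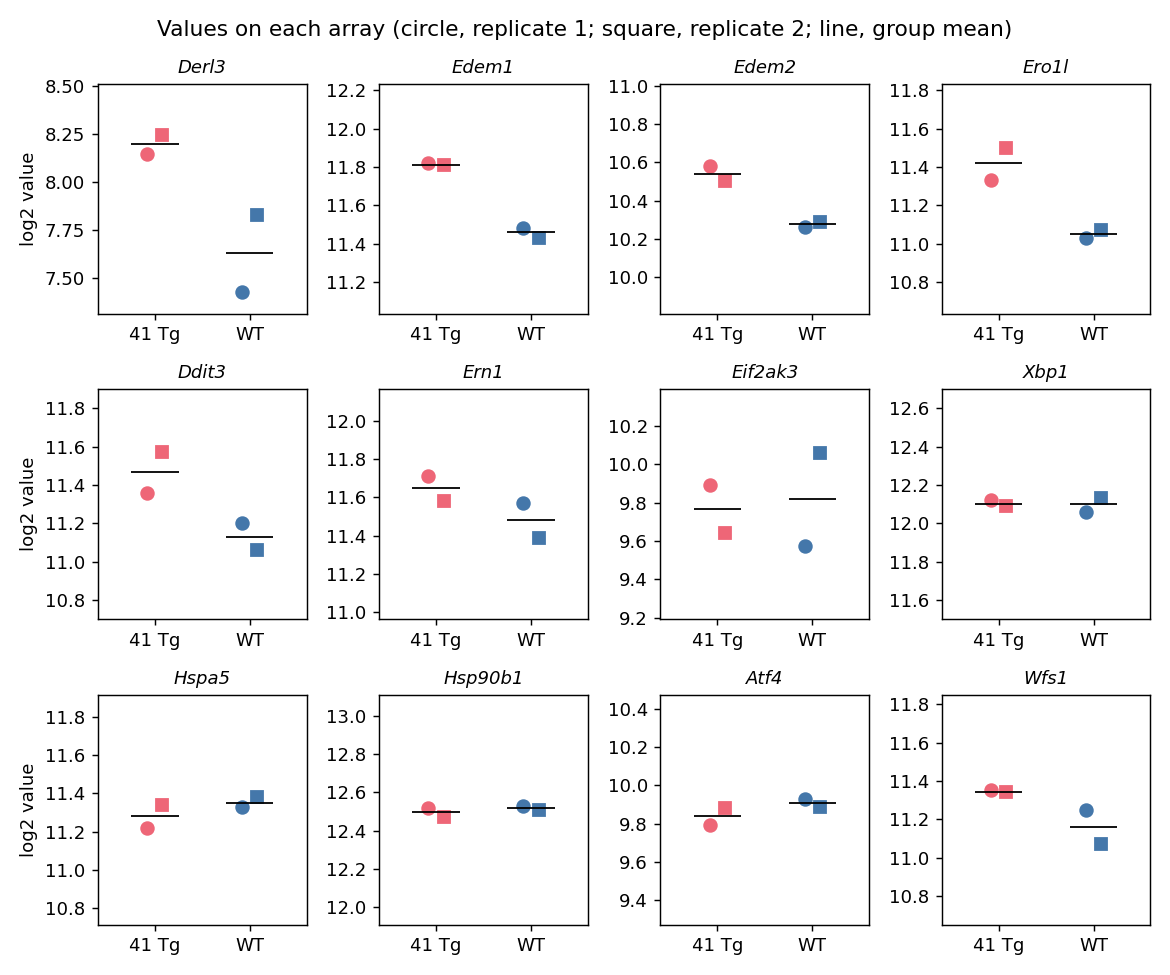
Deposited log2 values of 12 genes on each array, 41 Tg left and WT right, with group means as lines. Each panel spans the same 1.2 log2 units around its own centre. The 5 genes at an unadjusted p under 0.05 (Derl3, Edem1, Edem2, Ero1l and Ddit3) show separate groups. So do Ern1 and Wfs1, higher in 41 Tg, and Atf4, lower in 41 Tg, while Eif2ak3, Xbp1, Hspa5 and Hsp90b1 overlap.

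The products of ERAD genes recognise misfolded glycoproteins and pull them into the cytosol for the proteasome, and this role held 3 of the 5 genes at an unadjusted p under 0.05 (33.3% of its 9 genes, against 6.13% of all genes). Of the 9, 7 were higher (77.8%, against 45.7% of all genes), with a median of 0.11. In 5 both 41 Tg arrays lay above both WT arrays (55.6%, against 18.6% of all genes), and in the other 4 the groups overlapped. Derl3, of the Derlin channel proteins and known for its high level in secretory tissue, had 8.15 and 8.25 on the 41 Tg arrays, against 7.43 and 7.83 on the WT arrays. The groups were apart, and the WT arrays differed by 0.41 (difference 0.57, SE 0.16, 1.49-fold, 95% interval of the fold 1.13 to 1.95, unadjusted p = 0.0122, adjusted p = 0.25). The difference was 0.37 without WT replicate 1 and 0.77 without WT replicate 2. Its relatives Derl1 (0.044) and Derl2 (-0.0068) overlapped between the groups.

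The EDEM genes encode lectin-like mannosidases that mark glycoproteins for removal, and all 3 had higher values in 41 Tg islets. Edem1 had 11.82 and 11.81 on the 41 Tg arrays, against 11.48 and 11.43 on the WT arrays. Both pairs were tight (difference 0.36, SE 0.10, 1.28-fold, unadjusted p = 0.0132, adjusted p = 0.258). A dimmer Edem1 probeset, below the array medians, had 5.51 and 5.58 on the 41 Tg arrays, against 5.42 and 5.47 on the WT arrays, a difference of 0.10 (adjusted p = 0.787). With the mean of both probesets the Edem1 difference was 0.23.

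Edem2 had 10.58 and 10.50 on the 41 Tg arrays, against 10.26 and 10.29 on the WT arrays, again without overlap (difference 0.27, SE 0.10, unadjusted p = 0.0425, adjusted p = 0.400). Edem3 had 9.997 and 9.802 on the 41 Tg arrays, against 9.671 and 9.68 on the WT arrays (difference 0.22, SE 0.12, adjusted p = 0.528). Its lower 41 Tg array stood just above the WT pair, and the difference was 0.13 without 41 Tg replicate 1. Syvn1, the ubiquitin ligase of the core ERAD complex (0.11), and Sel1l, its scaffold (0.086), had small differences, and Herpud1, an adaptor of the complex that PERK and ATF6 signalling raises, had -0.047.

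Of the stress outputs, Ddit3, which encodes CHOP, had 11.36 and 11.57 on the 41 Tg arrays, against 11.20 and 11.06 on the WT arrays. The groups did not overlap (difference 0.33, SE 0.13, 1.26-fold, 95% interval of the fold 1.02 to 1.56, unadjusted p = 0.0387, adjusted p = 0.389). Trib3, a pseudokinase induced by ATF4 and CHOP together, had 9.24 and 9.30 on the 41 Tg arrays, against 9.40 and 9.27 on the WT arrays, with overlap (difference -0.068, SE 0.11). Ppp1r15a, which encodes GADD34, the subunit that directs dephosphorylation of eIF2, had 9.99 and 10.16 on the 41 Tg arrays, against 9.92 and 9.94 on the WT arrays. The pair of 41 Tg arrays lay just above the WT pair (difference 0.14, adjusted p = 0.715), and the difference was 0.052 without 41 Tg replicate 2. The median of the 3 genes was 0.14, and it ran from 0.052 without 41 Tg replicate 2 to 0.23 without 41 Tg replicate 1.

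In the last group, Wfs1, whose product regulates ER calcium and limits ATF6, had 11.35 and 11.34 on the 41 Tg arrays, against 11.25 and 11.07 on the WT arrays. The groups did not overlap (difference 0.18, SE 0.11, adjusted p = 0.606), and the difference was 0.096 without WT replicate 2. Sec61b, a subunit of the channel through which new proteins enter the ER, had 6.50 and 6.95 on the 41 Tg arrays, against 6.74 and 6.33 on the WT arrays. Both pairs were wide and overlapped (difference 0.19, SE 0.21), and its dimmer probeset had a difference of -0.085. Ssr1, of the translocon-associated complex that helps proinsulin enter the ER, had 11.58 and 11.76 on the 41 Tg arrays, against 11.68 and 11.56 on the WT arrays, with overlap (difference 0.048). The median of the 3 genes was 0.18, and it turned to -0.033 without 41 Tg replicate 2 and to -0.0088 without WT replicate 2.

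Genes with the ER stress element had differences on both sides of 0. The 10 members with it had a median difference of -0.0069 and ranged from -0.073 to 0.57, with Derl3 as the 1 at an unadjusted p under 0.05. The 23 with a promoter but without the element had a median of 0.063 and ranged from -0.071 to 0.37, with 4 at that threshold. Among the 27025 genes with a searched promoter the element stood in those of 37 genes, of which 29 were measured. Of these 29, 13 were higher and 16 lower in 41 Tg islets, with 0 past the adjusted threshold by limma and 3 at an unadjusted p under 0.05, where 11.8% of all genes were.

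Other genes of the same processes, 144 measured of 153 listed, also held 0 past the adjusted threshold by limma, with 1 higher and 4 lower at an unadjusted p under 0.05, where 6.13% of all genes were higher and 5.72% lower. Of the 144, 73 were higher and 71 lower, with a median of 0.0023. The targets of ATF4 and CHOP, which include enzymes of amino acid and one-carbon metabolism, had 23 of 29 genes lower and a median of -0.15. Both 41 Tg arrays lay below both WT arrays for 12 of them (41.4%, where 23.7% of all genes did). The mean of the 29 genes was 9.47 and 9.49 on the 41 Tg arrays, against 9.46 and 9.75 on the WT arrays. By this mean, though not in the 12 genes above, the 41 Tg arrays lay between the WT arrays and near WT replicate 1. The mean includes genes with wide WT pairs, such as Slc7a11 (8.80 and 10.45) and Cth (7.04 and 8.58), both named afterwards. The serine synthesis gene Psat1 had 8.14 and 8.31 on the 41 Tg arrays, against 8.66 and 8.90 on the WT arrays (difference -0.56, SE 0.13, adjusted p = 0.182). The mitochondrial folate gene Mthfd2 had a difference of -0.40 (SE 0.11, adjusted p = 0.251). The 2 remaining genes at an unadjusted p under 0.05, named after their values were seen, were the cell death genes Bcl2l11 (-0.34) and Bbc3 (-0.30). The stress-induced genes Chac1 (-0.25) and Atf3 (0.34), also named afterwards, had opposite signs and did not pass.

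The kinases and exchange factor subunits of eIF2 had 7 of 10 genes lower and a median of -0.092, led by the adaptor Nck1 (-0.21) and Eif2b4 (-0.21), neither past the test. Translocon, signal peptidase and oligosaccharyltransferase genes had 20 of 25 higher and a median of 0.053. The signal peptidase subunit Sec11c had 10.22 and 10.38 on the 41 Tg arrays, against 9.98 and 9.82 on the WT arrays (difference 0.40, SE 0.12, unadjusted p = 0.0180, adjusted p = 0.288), and Sec61g had a difference of 0.27. Other transducers had a median of 0.021, with Creb3l3 at -0.22 and Creb3 at 0.22. Other folding factors had 0.0099, with Clgn at -0.21 and Fkbp11 at 0.33. Other ERAD factors had 0.024, with Selk at 0.18 and Rnf139 at 0.16, and genes of ER exit and retrieval had -0.031, with Arf4 at -0.17 and Tmed3 at 0.22. None of these passed the test.

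**Figure D3:**
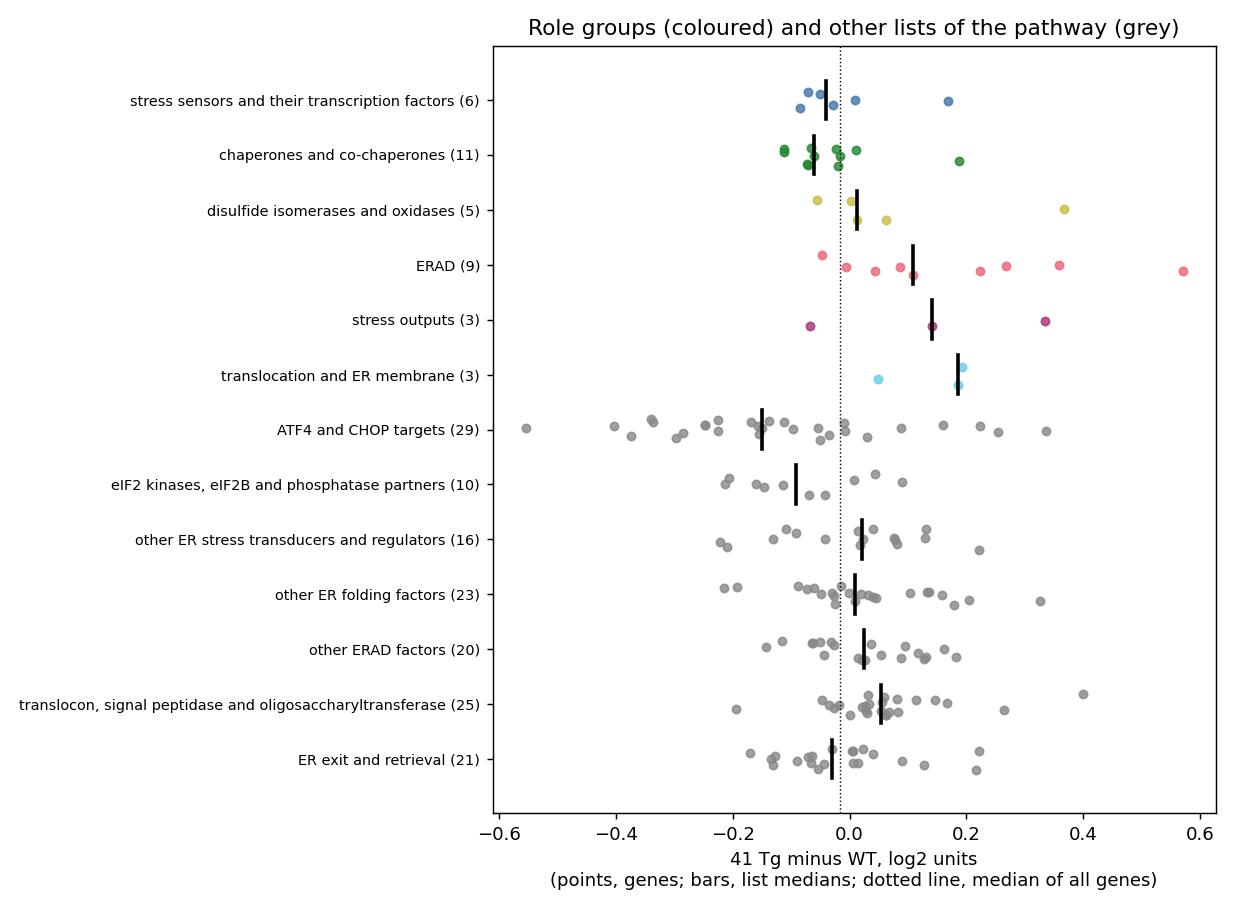
Differences of single genes, 41 Tg minus WT in log2 units, for the 6 role groups (coloured) and 7 other lists of the pathway (grey), with the number of genes in brackets and the list median as a bar. ERAD, at 0.11, lies to the right of the median of all genes (dotted, -0.017), and the targets of ATF4 and CHOP, at -0.15, lie to its left. Farther right than ERAD are stress outputs at 0.14 and translocation at 0.18, with 3 genes each. The other ERAD factors lie at 0.024.

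Markers of other cell types moved between the arrays. Plasma cells and acinar cells are both rich in ER. The plasma cell list shares Txndc5 with the list of other folding factors. The plasma and B cell list averaged 7.77 and 7.51 on the 41 Tg arrays, against 6.42 and 6.64 on the WT arrays, with 11 of 12 genes higher and Mzb1, an ER protein of plasma cells, past the test (difference 1.12, SE 0.11, adjusted p = 0.0211). In 9 of the 12 both 41 Tg arrays lay above both WT arrays, as in 18.6% of all genes. The groups overlapped for the plasma cell genes Sdc1 (-0.37), Tnfrsf17 (0.10) and Txndc5 (0.045), named afterwards. The macrophage and leukocyte list averaged 8.04 and 7.84 on the 41 Tg arrays, against 7.24 and 7.10 on the WT arrays, with 16 of 16 genes higher and Coro1a past the test. Both list means were higher on both 41 Tg arrays than on either WT array, as were Derl3, Edem1, Edem2, Ero1l and Ddit3. Their part in the differences of these 5 genes was not tested.

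Endothelial markers averaged 8.94 and 8.64 on the 41 Tg arrays, against 8.45 and 8.24 on the WT arrays, with 11 of 11 higher. Mesenchymal markers averaged 7.31 and 7.18 on the 41 Tg arrays, against 6.78 and 6.83 on the WT arrays, with 12 of 12 higher. In neither list did a gene pass limma's adjusted threshold, and 6 and 5 genes had an unadjusted p under 0.05. The arrays of Ern1, Edem1, Syvn1 and Wfs1 stood in the same order as the leukocyte and the endothelial means, which share that order. Those of Edem2 and Edem3 stood in the order that the plasma cell and mesenchymal means share. The islet endocrine mean was matched by Atf4 and Canx. The share of all genes in each order was not counted, so these matches are not a result about the members.

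Acinar markers had 12 of 22 higher and a median of 0.031, and their WT arrays were 10.08 and 11.27 as given above. Bhlha15, an acinar and plasma cell factor that enlarges the secretory apparatus, had 8.43 and 8.48 on the 41 Tg arrays, against 8.31 and 8.12 on the WT arrays (difference 0.24, adjusted p = 0.497). It did not pass and was named after its values were seen. It was the 1 acinar marker whose groups did not overlap, while the other 21 overlapped. Duct markers averaged 8.24 and 8.05 on the 41 Tg arrays, against 7.62 and 8.54 on the WT arrays, with Cftr higher and Prom1 lower past the test. Endocrine markers averaged 11.78 and 11.82 on the 41 Tg arrays, against 12.02 and 11.82 on the WT arrays, with 9 of 13 lower, 0 past the adjusted threshold by limma and 2 lower at an unadjusted p under 0.05.

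**Figure D4:**
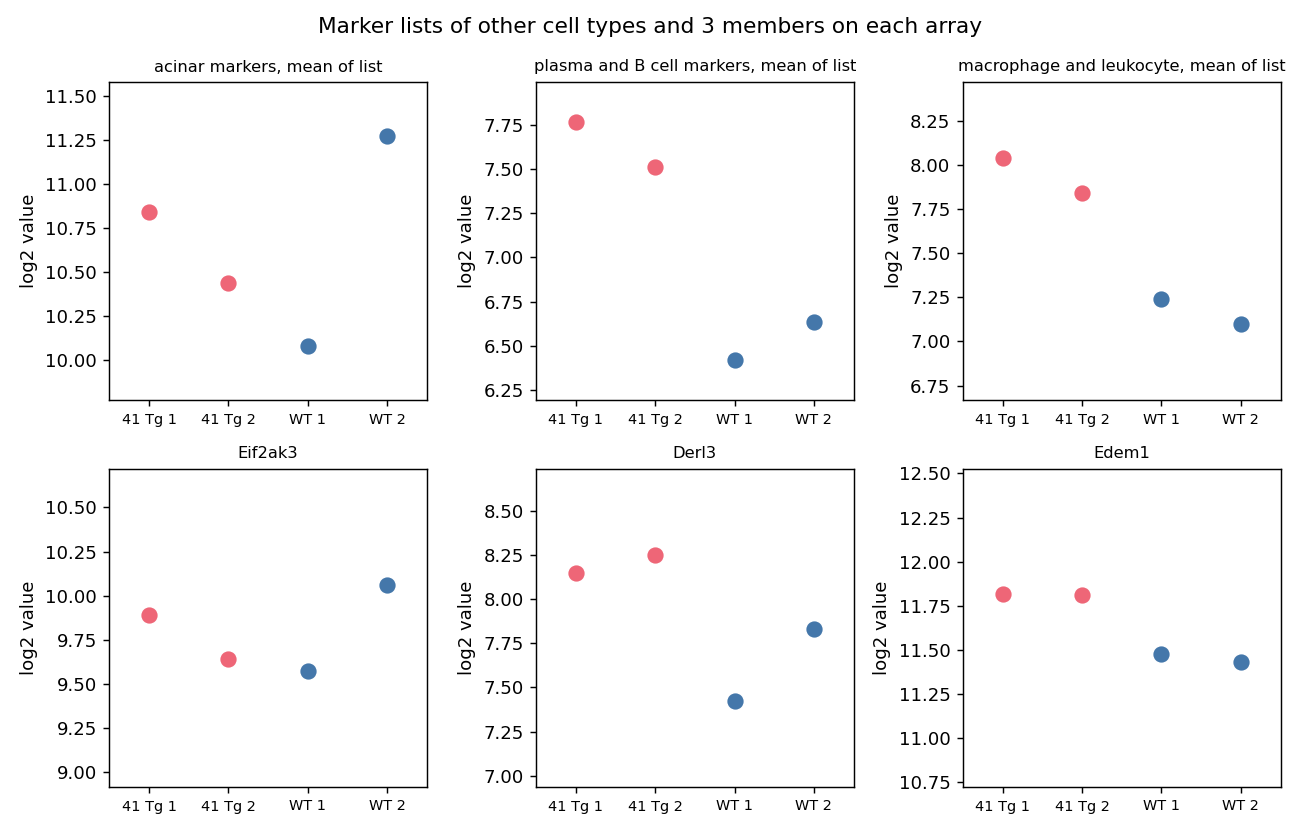
Mean log2 value of 3 marker lists (upper row) and log2 value of 3 genes (lower row) on each array, with the 41 Tg arrays first. All panels span 1.8 log2 units. Acinar markers and Eif2ak3 are highest on WT replicate 2 and lowest on WT replicate 1, while the immune lists, Derl3 and Edem1 are higher on both 41 Tg arrays.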

How the data were processed

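RNA (250 ng total) was labelled and hybridized to Affymetrix Mouse Gene 2.0 ST arrays, as the labels state. The deposited table holds log2 signals, seen from their range of 2.87 to 13.9, and Partek and RMA are named, with no version, in the submitters' processing notes. The genome build was not given in the sources used here. Of 27037 probesets, 23521 had 1 gene symbol, 1814 several and 1702 none. The brightest probeset by mean stood for each of 22180 genes, with no filter on dim genes.

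Groups followed the sample titles. limma 3.58.1 (lmFit and eBayes) in R 4.3.3 was fitted to all genes without covariates, with 2 residual and 3.76 prior degrees of freedom and Benjamini-Hochberg adjustment over all genes. The fit was tested on simulated data. With 2 arrays a group, the smallest two-sided p of an exact permutation test is 0.333, and the number of arrays limits the precision. Alternatives changed the probeset rule, a filter on dim genes, scaling, variance moderation, the replicate block and each array in turn.

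The members, role groups and lists were chosen with earlier results of these data known. Array values are given for the sensors, main chaperones and outputs and for the 4 genes of each role with the smallest p. Other pathway lists are given by their 2 genes with the smallest p, and marker lists by their means and any gene past the threshold. Genes said to be named afterwards, or after their values were seen, lie outside this rule. Promoters are from RefSeq on GRCm38.p6. Protein features were not analysed here.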

Additional observations from a re-analysis of the deposited data

How the results depend on the processing

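In all 13 alternatives, 0 of the 37 genes passed limma's adjusted threshold, and the lowest adjusted p was 0.0739, for Edem1 under a trended, robust variance prior. Past the threshold over all genes, against 199, were 347 under that prior, 0 without moderation (where 8.69% of genes had an unadjusted p under 0.05, against 11.8%) and 38 to 135 with each array left out. With the replicate block they were 24, and 3 members had an unadjusted p under 0.05 (Ero1l, Edem1 and Derl3), where 10.3% of all genes had. Replicate differences of the 2 groups did not rise together (r = -0.0631 over all genes and -0.211 over the 37 members). A correlation over genes cannot exclude that arrays with the same number were prepared together, and the labels do not say. The 5 members at an unadjusted p under 0.05 did not all stay under it with any 1 array left out. With all arrays, members under 0.05 were 4 without moderation (Ero1l, Edem1, Edem2 and Hyou1) and 4 with the mean of probesets (without Edem1). They were 6 under the trended, robust prior (Dnajb9 joined). In these 3 fits 8.69%, 11.8% and 12.3% of all genes were under 0.05. The ERAD median of 0.11 was 0.15 after a further quantile normalisation. With each array left out it ran from 0.079 to 0.16, that of chaperones from -0.10 to -0.0077, of oxidative folding from 0.011 to 0.083, of stress outputs from 0.052 to 0.23, of sensors from -0.058 to 0.028, of translocation from -0.033 to 0.27 and of all members from -0.0088 to 0.045. Of 481 recomputed member differences, 453 kept sign and call, 28 turned sign without a call and 0 gained one, and 22 of the 37 genes never turned sign. With each array left out, the difference ran for Xbp1 from -0.026 to 0.043, Dnajb11 from -0.13 to 0.087, Sdf2l1 from -0.20 to 0.065, Creld2 from -0.15 to 0.0053, Eif2ak3 from -0.30 to 0.19, Creb3l2 from -0.17 to 0.11 and Hsp90b1 from -0.049 to 0.0034. Likewise, the ranges were Pdia6 from -0.12 to 0.12, Derl1 from -0.029 to 0.12, Ssr1 from -0.041 to 0.14, Sec61b from -0.033 to 0.42, Herpud1 from -0.14 to 0.045, Derl2 from -0.11 to 0.10, Calr from -0.0067 to 0.029 and Ero1b from -0.011 to 0.037. Of the genes that kept their sign, those moved over 1.5 times ran for Ern1 from 0.08 to 0.26, Atf6 from -0.13 to -0.035, Atf4 from -0.12 to -0.026, Hspa5 from -0.14 to -0.0077, Dnajb9 from 0.11 to 0.26, Dnajc3 from -0.022 to -0.01, Canx from -0.089 to -0.034 and Manf from -0.19 to -0.031, and for Pdia3 from -0.10 to -0.016, Edem3 from 0.13 to 0.32, Sel1l from 0.031 to 0.14, Syvn1 from 0.062 to 0.16, Derl3 from 0.37 to 0.77, Trib3 from -0.13 to -0.0042, Ppp1r15a from 0.052 to 0.23 and Wfs1 from 0.10 to 0.27. With arrays centred, the differences were -0.0025 for Xbp1, -0.00028 for Calr and -0.0092 for Pdia6. For Derl2 they were 0.035 with the mean of probesets and 0.012 with a further quantile normalisation. A lone array is assumed to vary like the others. The cause of these shifts was not tested. The 4 arrays limit every interval.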
